A study of Homo sapiens with 8 samples.

Results

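The effect of estradiol on gene expression was estimated as an average over cells that did and did not also receive dexamethasone, in 8 RNA sequencing libraries of Ishikawa cells. Ishikawa is an established line of human endometrial adenocarcinoma. The comparison set 4 libraries with estradiol against 4 without it, which are all 8 libraries of the study. The libraries with estradiol were 2 given 17-beta-estradiol at 10 nM alone and 2 given estradiol at 10 nM together with dexamethasone at 100 nM. The libraries without it were 2 given the vehicle DMSO and 2 given dexamethasone at 100 nM alone. Dexamethasone is a synthetic agonist of the glucocorticoid receptor. The sample labels give 8 hr of treatment, and the shared treatment protocol gives 1 hr instead, and the sources do not settle this. Cells of each group had been kept for at least several days in medium without phenol red and with serum stripped of steroids, so every group started from a hormone-depleted state. A single line was used. Whether replicate libraries were grown as separate cultures is not stated, and the p-values then measure only the spread between these samples.

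Estradiol binds estrogen receptor alpha, a nuclear receptor that attaches to estrogen response elements in DNA, mostly at enhancers far from gene starts, and recruits coactivators or corepressors. In the endometrium estrogen drives growth of the epithelium in the first part of the cycle and induces the progesterone receptor, through which progesterone later stops that growth. The glucocorticoid receptor is a related receptor that binds other elements and can share enhancers and cofactors with the estrogen receptor.

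The model had a term for estradiol and a term for dexamethasone and no interaction, so each gene received a single estradiol fold change, given below as a log2 fold change ± its standard error. Levels are CPM values, counts scaled to the library size, after the TMM method, and a gene was called when its adjusted p in edgeR's quasi-likelihood test was under 0.05. Totals ran from 17846211 to 22487333 gene counts per library, with 16969 to 17507 genes detected in each. Dexamethasone replicate 1 stood apart from the other libraries without estradiol. It was the highest of these 4 in 192 of 367 genes raised by estradiol (52.3%) and in 12 of the 12 raised genes described first below, against 60 of 460 lowered genes (13.0%) and 18.4% of all genes tested. In the raised genes it exceeded dexamethasone replicate 2 by a median of 0.22 on the log2 scale, and main counts are also given without it. The epithelial markers of the line were present, with summed levels of 3393 to 4023 CPM with estradiol and 3439 to 4908 CPM without, led by the keratin gene KRT8, and 2 of these 8 markers, PAX8 and ESR1, were called lower. The PAX8 call was lost without estradiol replicate 1, combination replicate 1 or dexamethasone replicate 2 (adjusted p up to 0.0612). Leukocyte markers summed to 1.80 to 3.44 CPM with estradiol and 2.57 to 3.08 CPM without, with CD3E at 0 in every library, and endothelial markers to 7.66 to 10.1 CPM with and 8.29 to 9.99 CPM without. Fibroblast markers summed to 138 to 158 CPM with estradiol, against 156 to 201 CPM without. COL1A1, a collagen gene, made up most of that sum, and edgeR and DESeq2 called 0 of the 5 fibroblast markers tested. At an unadjusted p under 0.05 in edgeR there was 1 of them, against 2852 of all 14201 genes tested. The part of these markers in the results was not tested.

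Estradiol changed 827 of 14201 genes tested (5.82%). Of these, 367 were higher (2.58%) and 460 lower (3.24%). The raised genes reached the larger sizes. Their median log2 fold change was 0.55, with 99 genes above 1 and 33 above 2, whereas the lowered genes had a median of -0.51, with 55 below -1 and 4 below -2. The median over all genes tested was -0.00, and 388 of the called genes moved by less than 0.5. The libraries with and without estradiol did not overlap for 692 of the 827 called genes, against 11.5% of all genes tested. Single libraries moved the number of calls. Leaving out estradiol replicate 1 gave 484, combination replicate 1 gave 426, the unnumbered combination library gave 472 and dexamethasone replicate 2 gave 459. Without dexamethasone replicate 1 there were 795 calls, with 404 higher and 391 lower, and 665 of these were among the 827.

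**Figure D1:**
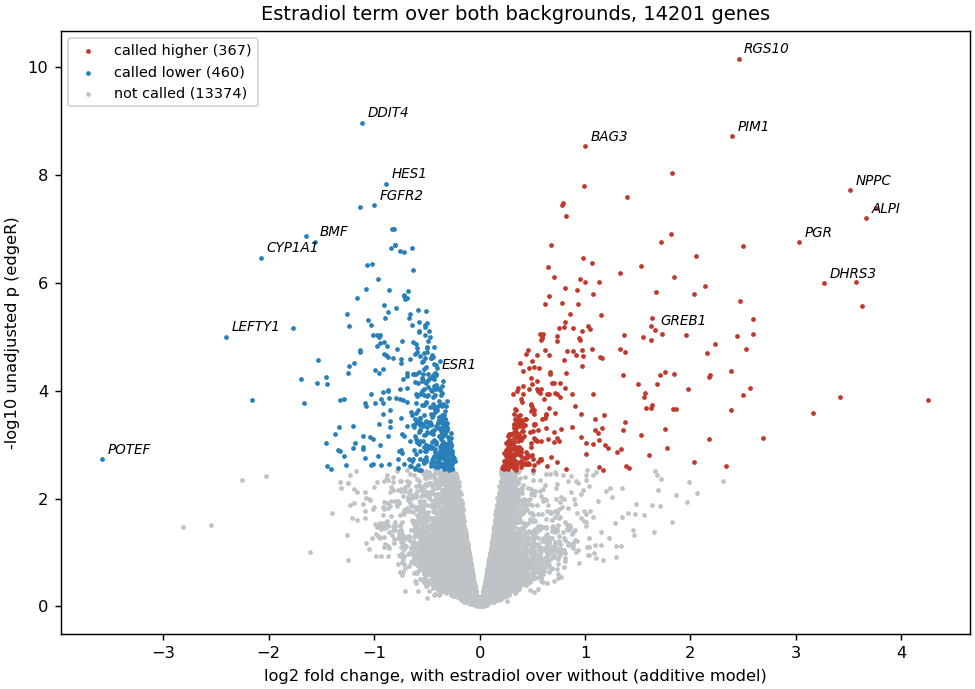
Log2 fold change of the estradiol term (x axis) against -log10 of the unadjusted p (y axis) for 14201 genes tested with edgeR; coloured points are the 367 genes called higher and the 460 called lower. The raised genes extend further from 0 than the lowered ones.

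The receptors themselves moved in opposite directions. PGR, which encodes the progesterone receptor and is a textbook target of estrogen, had 41.0 and 31.8 CPM with estradiol alone and 36.5 and 37.3 CPM with both hormones, against 4.09 and 2.53 CPM in DMSO and 8.91 and 2.47 CPM with dexamethasone alone. Every library with estradiol stood far above every library without it, and the log2 fold change was 3.03 ± 0.29 (adjusted p = 1.08e-04). ESR1, the gene of estrogen receptor alpha, had 125 and 121 CPM with estradiol alone and 144 and 154 CPM with both hormones, against 181 and 157 CPM in DMSO and 199 and 184 CPM with dexamethasone alone. The groups did not overlap, although the highest combination library came close to the lowest DMSO library, and ESR1 fell by 0.41 on the log2 scale (SE 0.07, adjusted p = 0.00328). NR3C1, the glucocorticoid receptor gene, was at 58.3 to 65.5 CPM with estradiol and at 58.9 to 66.4 CPM without, with a log2 fold change of 0.02 ± 0.07 (adjusted p = 0.917). Of 10 steroid receptor genes tested, PGR and ESR1 were the members called, while 2.58% of all genes tested rose and 3.24% fell. A second member rose without DMSO replicate 1 or dexamethasone replicate 1. In bulk RNA a change in the number of cells of a type and a change of RNA per cell cannot be told apart.

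Among 23 receptor coregulators, 3 were higher and 1 lower, against 2.58% and 3.24% of all genes tested, and the counts were the same with each library left out. NRIP1, a corepressor recruited by the bound estrogen receptor and itself a known estrogen target, had 113 and 93.4 CPM with estradiol alone and 105 and 125 CPM with both hormones, against 48.1 and 42.0 CPM in DMSO and 65.9 and 42.4 CPM with dexamethasone alone. All libraries with estradiol were above all libraries without it (log2 fold change 1.14 ± 0.12, adjusted p = 2.86e-04). NCOA4, a coactivator that also carries ferritin to lysosomes, averaged 465 ± 32.0 CPM with estradiol and 291 ± 24.6 CPM without (SD, n = 4 each), a log2 fold change of 0.68 ± 0.06. PPARGC1A, a coactivator of mitochondrial genes, had 2.08 and 1.90 CPM with estradiol alone and 4.70 and 5.39 CPM with both hormones, against 4.15 and 3.31 CPM in DMSO and 10.6 and 12 CPM with dexamethasone alone. Its levels with dexamethasone were higher in both arms, so the pooled groups overlapped while each pair of groups was separate, and it fell by 1.06 on the log2 scale (adjusted p = 8.3e-04).

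Among called genes with a mean log2 CPM above 1 and separate groups, those with the largest increases encode phosphatases, a peptide hormone, enzymes of lipid and retinoid metabolism and signalling proteins. ALPI, an alkaline phosphatase first known from the intestine, had 9.52 and 11.4 CPM with estradiol alone and 9.81 and 8.22 CPM with both hormones, against 0.735 and 0.243 CPM in DMSO and 1.54 and 0.505 CPM with dexamethasone alone. No library without estradiol came near those with it (3.67 ± 0.31, adjusted p = 5.54e-05). Alkaline phosphatase activity is a widely used readout of estrogen action in Ishikawa cells. The placental gene ALPP rose by 2.59 ± 0.35 and its close copy ALPPL2 by 1.96 ± 0.27. Thus 3 of the 4 alkaline phosphatase genes tested were higher, against 2.58% of all genes tested. In reference transcripts ALPP and ALPPL2 share 90.0% of bases over 2496 bases, ALPI and ALPP 85.7% over 1833 and ALPI and ALPPL2 86.5% over 1768, so the split of reads between these genes is uncertain.

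NPPC, which encodes C-type natriuretic peptide, had 9.91 and 10.5 CPM with estradiol alone and 10.9 and 9.29 CPM with both hormones, against 0.682 and 0.535 CPM in DMSO and 1.78 and 0.505 CPM with dexamethasone alone. Levels with estradiol were nearly the same in the presence and absence of dexamethasone, and the log2 fold change was 3.51 ± 0.27. DHRS3, a reductase that turns retinaldehyde back to retinol, had 31.8 and 40.4 CPM with estradiol alone and 37.9 and 32.8 CPM with both hormones, against 3.10 and 1.41 CPM in DMSO and 8.72 and 1.85 CPM with dexamethasone alone. Its highest value without estradiol was that of dexamethasone replicate 1, as for the other genes of this group, and it rose by 3.27 ± 0.36 (adjusted p = 2.89e-04). Of 17 retinoid genes tested, 2 rose, DHRS3 and the retinoic acid receptor gene RARA (0.59 ± 0.08). RARG, the gene of another such receptor, fell by 0.40 in the same units. Over all genes tested, 2.58% rose and 3.24% fell.

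G0S2 restrains the lipase that breaks down stored triglyceride. It had 104 and 117 CPM with estradiol alone and 215 and 183 CPM with both hormones, against 17.5 and 12.6 CPM in DMSO and 62.6 and 25.2 CPM with dexamethasone alone. Levels were highest with both hormones, and the estradiol term was 2.50 ± 0.24. RGS10, which switches off G protein signals, rose by 2.46 ± 0.12 with the smallest p of the genes in this group (adjusted p = 9.72e-07), with 30.3 to 40.2 CPM across the libraries with estradiol and 4.86 to 7.75 CPM across those without. PIM1, a serine/threonine kinase that promotes survival, had 64.2 and 70.4 CPM with estradiol alone and 66.7 and 67.7 CPM with both hormones, against 10.9 and 11.2 CPM in DMSO and 18.8 and 10.3 CPM with dexamethasone alone. The 4 values with estradiol lay close together, and PIM1 rose by 2.40 ± 0.15 (adjusted p = 8.87e-06). THBS1, the matrix protein thrombospondin 1, had 845 and 819 CPM with estradiol alone and 766 and 817 CPM with both hormones, against 162 and 89.9 CPM in DMSO and 356 and 112 CPM with dexamethasone alone. Here too the groups did not overlap, with dexamethasone replicate 1 the highest of the libraries without estradiol (2.24 ± 0.32). IQSEC3, an exchange factor for small GTPases of synapses, CACNA1I, a calcium channel subunit, and DEGS2, a desaturase and hydroxylase of sphingolipids, rose by 2.19 ± 0.36, 2.18 ± 0.36 and 2.05 ± 0.20.

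**Figure D2:**
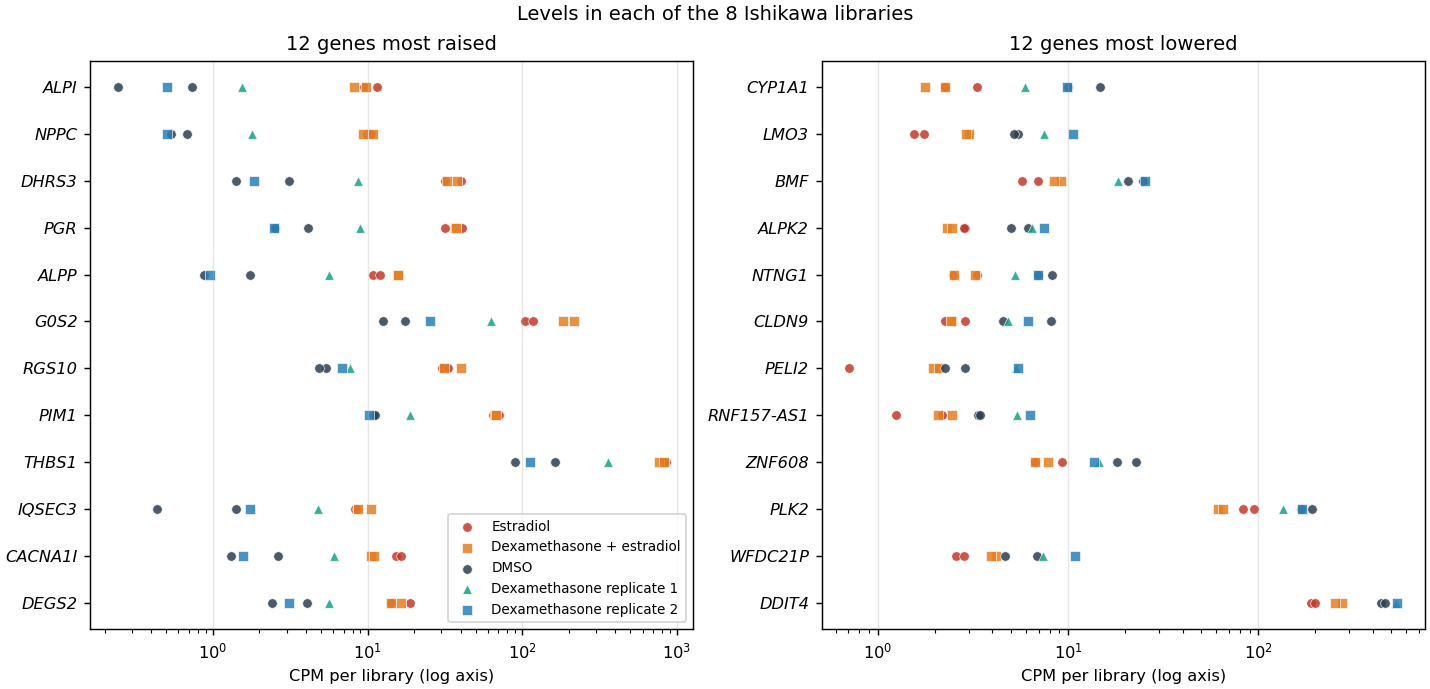
CPM (log axis) in each of the 8 libraries for the 12 raised and the 12 lowered genes with the largest changes among called genes with a mean log2 CPM above 1 whose groups do not overlap; libraries with estradiol come first in the legend, and symbols mark the treatment. In the raised genes the highest point without estradiol is dexamethasone replicate 1.

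Among the called genes with a mean log2 CPM above 1 whose groups did not overlap, CYP1A1 fell most. CYP1A1, a cytochrome P450 that oxidises estrogens and aromatic hydrocarbons and is a classical target of the aryl hydrocarbon receptor, had 3.32 and 2.25 CPM with estradiol alone and 1.77 and 2.24 CPM with both hormones, against 9.97 and 14.7 CPM in DMSO and 5.97 and 9.93 CPM with dexamethasone alone. Each library with estradiol was below each library without it (-2.07 ± 0.21, adjusted p = 1.42e-04). Of 13 genes of the aryl hydrocarbon receptor pathway tested, CYP1A1 fell and TIPARP, a feedback inhibitor of that receptor, rose by 0.49 ± 0.08. The other members were not called, and over all genes tested 3.24% fell and 2.58% rose. With either DMSO library left out, 2 members of the pathway fell. LMO3, a LIM-domain cofactor, had 1.75 and 1.55 CPM with estradiol alone and 3.02 and 2.92 CPM with both hormones, against 5.46 and 5.20 CPM in DMSO and 7.46 and 10.7 CPM with dexamethasone alone. It was lower with estradiol in either background (-1.64 ± 0.15). BMF, a BH3-only promoter of apoptosis, had 6.98 and 5.70 CPM with estradiol alone and 9.23 and 8.39 CPM with both hormones, against 20.6 and 24.7 CPM in DMSO and 18.3 and 25.3 CPM with dexamethasone alone. Its highest level with estradiol was below its lowest level without, and it fell by 1.56 on the log2 scale (adjusted p = 1.08e-04).

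DDIT4, an inhibitor of mTORC1 that stress and glucocorticoids induce, had 189.7 and 200.0 CPM with estradiol alone and 275 and 255 CPM with both hormones, against 443 and 462 CPM in DMSO and 529.7 and 538 CPM with dexamethasone alone. The groups were widely separate and DDIT4 fell by 1.11 on the log2 scale (SE 0.07, adjusted p = 7.53e-06). It was the 1 member called among 28 mTORC1 regulators tested, a share near the 3.24% of all genes tested that fell; without dexamethasone replicate 1 there were 2 and without estradiol replicate 2 there were 3. PLK2, a polo-like kinase that p53 induces, fell by 1.14 on the log2 scale, to 61.6 to 95.3 CPM with estradiol against 135 to 192 CPM without. ALPK2, an atypical kinase, NTNG1, a netrin of axon guidance, CLDN9, a tight junction claudin, and the zinc finger gene ZNF608 fell by 1.26, 1.24, 1.24 and 1.17 on the log2 scale. PELI2, a ubiquitin ligase of innate signalling, fell by 1.20, but its call was lost without combination replicate 1, the other combination library or dexamethasone replicate 2 (adjusted p up to 0.0611). RNF157-AS1 and WFDC21P fell by 1.19 and 1.13. The first is an antisense gene and the second a pseudogene, and their reads may not be separable from those of their partner genes. The search for near copies described below found none for either, but it did not cover the opposite strand.

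Of 40 genes tested from a list of estrogen targets collected mostly from breast cancer cells, 18 were higher and 0 lower, against 2.58% and 3.24% of all genes tested, with a median log2 fold change of 0.31 against -0.00 over all genes. Leaving out single libraries gave 16 to 19 higher, with 1 lower without DMSO replicate 1 and 0 lower otherwise. GREB1, an estrogen-induced cofactor of the receptor needed for hormone-driven growth, had 28.1 and 29.9 CPM with estradiol alone and 30.3 and 34.2 CPM with both hormones, against 8.03 and 6.71 CPM in DMSO and 17.7 and 6.85 CPM with dexamethasone alone. The groups did not overlap, and dexamethasone replicate 1 lay between them (1.66 ± 0.22, adjusted p = 0.00107). SLC22A5, the carnitine transporter, had 54.3 and 54.9 CPM with estradiol alone and 57.4 and 54.5 CPM with both hormones, against 32.1 and 33.2 CPM in DMSO and 31.1 and 32.0 CPM with dexamethasone alone. Values within each arm were nearly equal, and a log2 fold change of 0.78 ± 0.06 had an adjusted p of 4.05e-05. SLC9A3R1, a scaffold that ties transporters to the membrane, and ABCA3, a lipid transporter, rose by 0.79 ± 0.06 and 0.82 ± 0.07. CA12, a carbonic anhydrase on the cell surface, rose by 2.03 ± 0.23. IGFBP4, a binding protein of insulin-like growth factors, rose by 2.16 ± 0.32 from low levels, at 1.73 to 2.53 CPM with estradiol and 0.157 to 0.722 CPM without.

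Some genes that are known estrogen targets in breast cells did not pass here. PDZK1, another membrane scaffold, had 0.732 and 1.10 CPM with estradiol alone and 1.86 and 1.53 CPM with both hormones, against 0.735 and 0.583 CPM in DMSO and 1.06 and 1.18 CPM with dexamethasone alone. The groups overlapped (0.56 ± 0.23, adjusted p = 0.200), and a pseudogene that is 99.6% identical over 1350 bases makes its reads uncertain. TFF1, the trefoil peptide of the standard breast cancer readout, stayed below the filter on low counts and was not tested.

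Of 25 Notch pathway genes, 6 fell and 2 rose, against 3.24% and 2.58% of all genes tested. With any library but dexamethasone replicate 1 or estradiol replicate 2 left out, 1 rose, and 6 or 7 fell in every case. HES1, the main transcriptional repressor that Notch induces, had 73.0 and 75.6 CPM with estradiol alone and 63.3 and 60.1 CPM with both hormones, against 133 and 142 CPM in DMSO and 106 and 122 CPM with dexamethasone alone. Its values with estradiol were below every value without it (-0.89 ± 0.07, adjusted p = 3.25e-05). JAG1, a ligand of Notch receptors, had 136 and 125 CPM with estradiol alone and 167 and 177 CPM with both hormones, against 204 and 212 CPM in DMSO and 319 and 368 CPM with dexamethasone alone. JAG1 fell by 0.84 on the log2 scale although its levels were higher with dexamethasone in both arms. NRARP, a feedback inhibitor of Notch, fell by 1.07 on the log2 scale (adjusted p = 1.78e-04).

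Of 32 genes of the TGF-beta family and its targets 7 fell and 1 rose, against 3.24% and 2.58% of all genes tested. TGFB2, a ligand, fell by 0.87 and ID1, a target of BMP signalling that blocks differentiation factors, fell by 0.67 on the log2 scale, to 127 to 157 CPM with estradiol against 206 to 253 CPM without. LEFTY1, a secreted inhibitor of Nodal, had 0.732 and 0.795 CPM with estradiol alone and 3.28 and 3.50 CPM with both hormones, against 0.84 and 3.40 CPM in DMSO and 18.8 and 26.4 CPM with dexamethasone alone. The fall of LEFTY1 by 2.40 on the log2 scale was thus carried mostly by the libraries with dexamethasone, where the groups were far apart. Without dexamethasone the groups did not overlap either, but DMSO replicate 1, at 0.84 CPM, lay close to both estradiol libraries. LEFTY1 shares 96.4% of bases over 1203 bases with LEFTY2, so its reads are uncertain. LEFTY2 lost its call without estradiol replicate 1, DMSO replicate 2 or any of the combination and dexamethasone libraries (adjusted p up to 0.110). Leaving out single libraries gave 5 to 9 members of the TGF-beta list lower and 0 or 1 higher, with 5 and 0 without DMSO replicate 2 or dexamethasone replicate 2.

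Of 22 genes of FGF signalling 4 fell and 3 rose, against 3.24% and 2.58% of all genes tested. The number that rose was 1 without either estradiol library, combination replicate 1, DMSO replicate 2 or dexamethasone replicate 2. FGFR2, an FGF receptor whose activating mutations occur in endometrial cancer, had 43.1 and 43.2 CPM with estradiol alone and 45.5 and 49.3 CPM with both hormones, against 96.7 and 93.4 CPM in DMSO and 78.8 and 93.8 CPM with dexamethasone alone. Its levels with estradiol were close to each other and all below those without, and it fell by 1.00 on the log2 scale (SE 0.08, adjusted p = 4.05e-05). FGF18, a ligand, and SPRY1, a feedback inhibitor of the pathway, fell by 0.58 and 0.51 on the log2 scale. Among 12 genes of the EGF receptor family, TGFA, a ligand of that receptor, rose. TGFA had 469 and 479 CPM with estradiol alone and 363 and 361 CPM with both hormones, against 247 and 184 CPM in DMSO and 269.7 and 176 CPM with dexamethasone alone. It was higher in every library with estradiol (0.92 ± 0.14, adjusted p = 0.00188). The receptor gene ERBB2 fell by 0.29 on the log2 scale, a call lost without estradiol replicate 1, DMSO replicate 2 or any of the combination and dexamethasone libraries (adjusted p up to 0.175). TGFA was the 1 member called in these cases, with dexamethasone replicate 1 as the exception.

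Of 13 genes of the insulin-like growth factor axis, 2 rose and 1 fell, against 2.58% and 3.24% of all genes tested, and 1 rose without estradiol replicate 1 or the unnumbered combination library. IGFBP3, a binding protein that restrains these factors, fell by 0.87 on the log2 scale, to 249 to 276 CPM with estradiol against 396 to 654 CPM without. Among 14 VEGF and PDGF genes 2 rose and 2 fell. The number that fell was 1 without estradiol replicate 1 or 2, either combination library, DMSO replicate 2 or dexamethasone replicate 2, and 3 without DMSO replicate 1. VEGFA, the main angiogenic factor, rose by 0.57 ± 0.08, and NRP1, its coreceptor, by 1.86 ± 0.36 at levels under 1 CPM. PDGFB, a platelet-derived growth factor subunit, had 22.2 and 21.1 CPM with estradiol alone and 24.2 and 25.0 CPM with both hormones, against 30.2 and 35.0 CPM in DMSO and 54.7 and 66.6 CPM with dexamethasone alone. With estradiol it stayed at a similar level in both backgrounds, below every library without estradiol (-0.96 ± 0.13, adjusted p = 0.00119).

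Among 24 immediate early genes, which respond to growth signals within the first hours, 4 rose and 5 fell, against 2.58% and 3.24% of all genes tested. EGR3, a zinc finger factor known as an estrogen target, rose by 1.37 ± 0.19. JUNB, a subunit of the AP-1 factor, fell by 0.91 on the log2 scale, to 35.3 to 44.5 CPM with estradiol against 58.4 to 96.0 CPM without. The numbers of members called moved to 1 higher and 3 lower without either combination library, to 2 higher and 3 lower without dexamethasone replicate 2, to 2 and 4 without dexamethasone replicate 1 and to 3 and 3 without estradiol replicate 1. Of 19 genes of the Hippo pathway, both its components and its targets, 0 rose and 5 fell. The number that fell was 3 without estradiol replicate 1, dexamethasone replicate 1 or either combination library. CTGF, a matrix-associated target of YAP that has since been renamed CCN2, fell by 0.93, and the YAP partners AMOTL1 and TEAD3 fell by 0.35 and 0.40 on the log2 scale. Of 36 Wnt genes 4 rose and 1 fell. Leaving out any library other than dexamethasone replicate 1 left between 1 and 3 of them called, and without that library 2 rose and 2 fell. FZD5, a Wnt receptor, held its call whichever library was left out (0.75 ± 0.10, adjusted p up to 0.00545).

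Estradiol raised several nutrient transporters. Of 22 amino acid transporter genes 6 rose and 0 fell, against 2.58% and 3.24% of all genes tested. SLC7A5, the large neutral amino acid carrier, had 2479 and 2494 CPM with estradiol alone and 2339 and 2359 CPM with both hormones, against 1321 and 1230.1 CPM in DMSO and 1661 and 1111 CPM with dexamethasone alone. The groups were far apart (0.86 ± 0.11, adjusted p = 6.98e-04). SLC6A6, the taurine transporter, had 131 and 136 CPM with estradiol alone and 112 and 121 CPM with both hormones, against 51.9 and 40.1 CPM in DMSO and 56.1 and 41.2 CPM with dexamethasone alone. Its lowest value with estradiol was well above its highest value without (1.40 ± 0.11, adjusted p = 4.04e-05). Of 32 genes of glycolysis and hypoxia 4 rose and 0 fell, among them SLC16A3, the lactate exporter of glycolytic cells (1.00 ± 0.11). Of 25 genes of ion and water transport 4 rose and 0 fell, among them CA2, a cytosolic carbonic anhydrase (0.95 ± 0.13). HSD11B2, which inactivates cortisol, rose by 1.33 ± 0.19, at 9.29 to 12.5 CPM with estradiol against 2.77 to 7.75 CPM without.

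Of 41 ribosome biogenesis genes, 9 rose and 0 fell, against 2.58% and 3.24% of all genes tested, with a median log2 fold change of 0.15. RRP12, UTP20 and PNO1, factors of ribosomal subunit assembly, rose by 0.40 ± 0.07, 0.39 ± 0.08 and 0.37 ± 0.06. The number of members called was 4 without estradiol replicate 1, 3 without combination replicate 1, 3 without DMSO replicate 2 and 3 without dexamethasone replicate 2. Of 20 heat shock chaperones 4 rose and 0 fell, and each of the 20 had a log2 fold change above 0. BAG3, a cochaperone that directs damaged proteins to autophagy, had 154 and 159 CPM with estradiol alone and 224 and 215 CPM with both hormones, against 84.7 and 76.8 CPM in DMSO and 113 and 101 CPM with dexamethasone alone. Its levels were higher with estradiol in each background (1.00 ± 0.07, adjusted p = 1.04e-05). HSPA8, the constitutive HSP70 chaperone, rose by 0.41 ± 0.07. Without estradiol replicate 1, either combination library, DMSO replicate 2 or dexamethasone replicate 2, 2 of the chaperones were called.

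Of 40 genes of DNA replication and 36 of mitosis, edgeR and DESeq2 called 0, and the median log2 fold changes were -0.03 and -0.03. In each list 4 members had an unadjusted p under 0.05 in edgeR, against 2852 of all 14201 genes tested. Without dexamethasone replicate 1, 1 replication gene was called. Of 27 CDK inhibitors and G1 cyclins 1 rose and 3 fell, against 2.58% and 3.24% of all genes tested. Leaving out any library but dexamethasone replicate 1 left 0 higher, with 3 lower without DMSO replicate 1 and 2 lower without each of the others. The raised member was CCND2, cyclin D2 (0.42 ± 0.10), whose call was thus lost without 7 of the 8 libraries (adjusted p up to 0.120). CDKN1C, the CDK inhibitor p57, had 10.5 and 11.5 CPM with estradiol alone and 22.3 and 19.0 CPM with both hormones, against 14.4 and 21.7 CPM in DMSO and 52.8 and 63.4 CPM with dexamethasone alone. It was lower with estradiol within each background, while the pooled groups overlapped (-1.14 ± 0.17, adjusted p = 0.00172). CCNG2, an atypical cyclin of growth arrest, fell by 0.59 on the log2 scale, to 52.8 to 67.3 CPM with estradiol against 84.9 to 99.7 CPM without. Of 27 apoptosis genes, 2 rose and 4 fell, with BMF and the death receptor gene FAS (-0.52 ± 0.07) lower and the mitophagy receptor gene BNIP3 (0.44 ± 0.09) higher. Here 1 rose without estradiol replicate 1, the unnumbered combination library, DMSO replicate 2 or dexamethasone replicate 2. In this list 5 fell without DMSO replicate 1 and 4 without dexamethasone replicate 2. Without combination replicate 1 the number was 2, and it was 3 without each of the others. Of 25 p53 targets 1 rose and 5 fell, among them PLK2 and BTG2, an antiproliferative gene (-0.50 ± 0.06), and 0 rose without estradiol replicate 1, either combination library, DMSO replicate 2 or dexamethasone replicate 2. PIM3, a kinase related to PIM1, and CISH, a feedback inhibitor of cytokine receptors, rose by 0.51 ± 0.08 and 0.98 ± 0.15.

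Several components of epithelial junctions fell. Of 31 keratin and junction genes 0 rose and 6 fell, against 2.58% and 3.24% of all genes tested. Their median log2 fold change was -0.16. Leaving out single libraries gave 3 to 9 lower and 0 higher. The number that fell was 3 without combination replicate 1. It was 4 without estradiol replicate 1, the unnumbered combination library, DMSO replicate 2 or dexamethasone replicate 2. JUP, the junction protein plakoglobin, averaged 252 ± 7.06 CPM with estradiol and 374 ± 46.5 CPM without (SD, n = 4 each), and PKP1, a plakophilin of desmosomes, fell by 0.79 on the log2 scale. Of 26 endometrial lineage factors 3 rose and 3 fell. Leaving out any single library gave fewer raised members. There was 1 without estradiol replicate 1 or the unnumbered combination library and 2 without each of the others, with 2 or 3 lower. FOXJ1, the master factor of ciliated cells, fell by 0.79 and GRHL2, a factor of epithelial identity, by 0.38 on the log2 scale. Of 22 genes regulated by progesterone or linked to receptivity, 0 rose and 3 fell. With any library but DMSO replicate 1 or estradiol replicate 2 left out, 2 fell, and 1 rose without estradiol replicate 2. ITGB3, an integrin subunit used as a marker of receptive endometrium, had 23.9 and 22.6 CPM with estradiol alone and 23.8 and 24.4 CPM with both hormones, against 32.5 and 39.4 CPM in DMSO and 32.8 and 38.6 CPM with dexamethasone alone. All values with estradiol lay below those without (-0.60 ± 0.09, adjusted p = 0.00143). ITGB3 shares 100% of bases over 2267 bases with another annotated gene, so its reads are uncertain.

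Of 31 known glucocorticoid targets tested, 3 rose and 6 fell with estradiol, against 2.58% and 3.24% of all genes tested. Their median log2 fold change was -0.15. Leaving out single libraries gave 2 or 3 higher and 4 to 8 lower. The number that fell was 4 without either combination library, DMSO replicate 2 or dexamethasone replicate 2. CRISPLD2, a secreted protein that restrains inflammation, had 41.1 and 38.5 CPM with estradiol alone and 31.6 and 32.8 CPM with both hormones, against 68.0 and 72.3 CPM in DMSO and 51.4 and 60.4 CPM with dexamethasone alone. It was lower with estradiol in both backgrounds, with its lowest levels in the libraries given both hormones (-0.81 ± 0.07, adjusted p = 7.96e-05). TFCP2L1, a transcription factor gene of epithelia, had 30.0 and 29.7 CPM with estradiol alone and 93.8 and 105 CPM with both hormones, against 13.3 and 12.7 CPM in DMSO and 61.8 and 39.0 CPM with dexamethasone alone. Here both hormones went with higher levels, the pooled groups overlapped, and the estradiol term was 1.07 ± 0.12 (adjusted p = 3.88e-04).

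**Figure D3:**
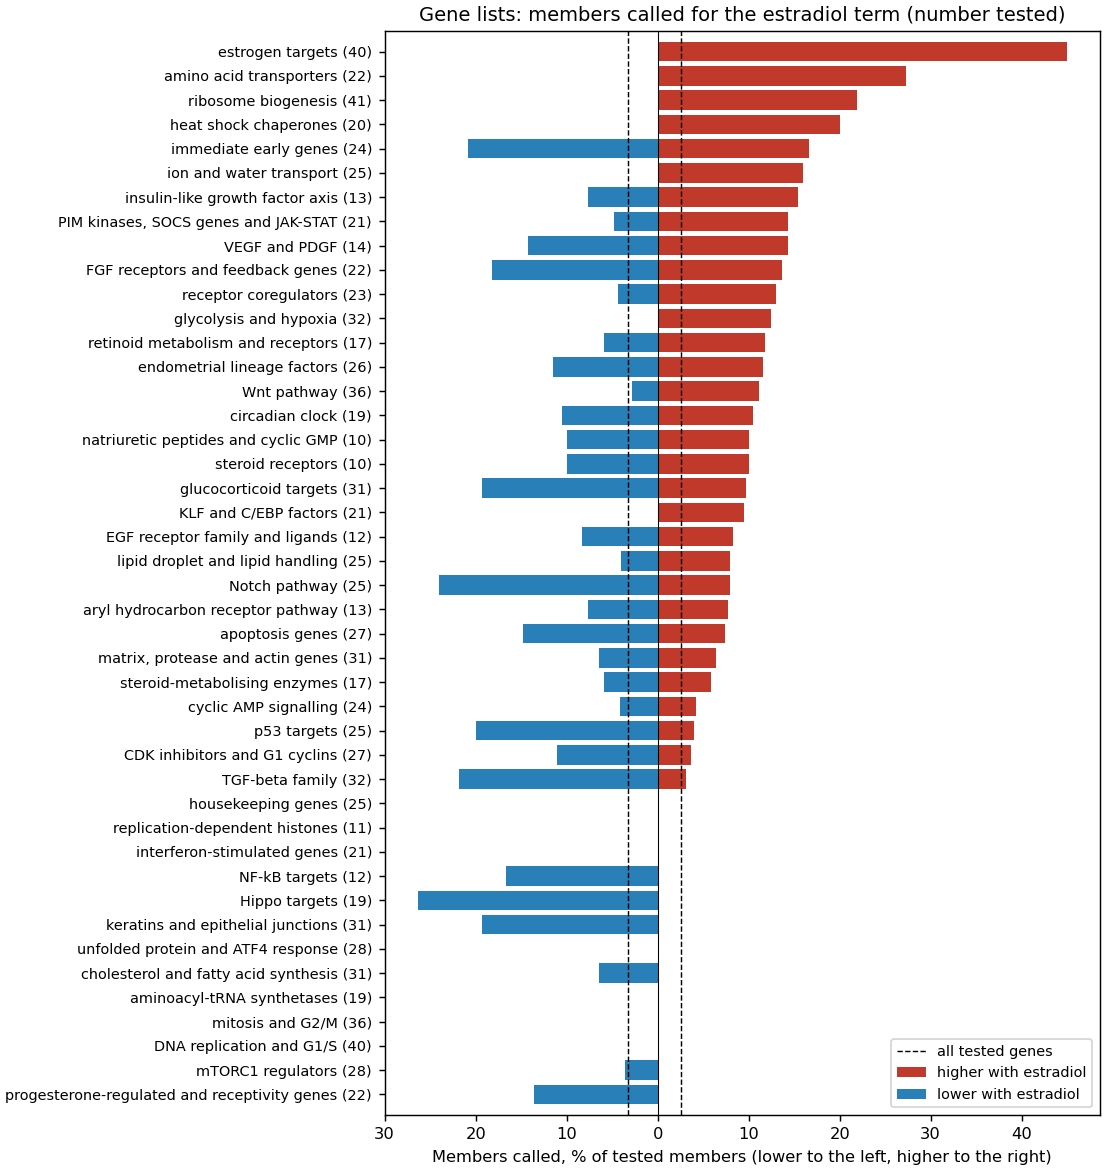
Share of tested members (x axis, percent) called lower with estradiol (left of 0) and higher (right of 0) for each gene list with at least 10 members tested; the number tested is in parentheses and dashed lines mark the shares over all genes tested. Estrogen targets have 18 of 40 members higher and 0 lower, and keratin and junction genes 0 higher and 6 of 31 lower.

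Further lists with 0 members called by edgeR and by DESeq2 were 19 aminoacyl-tRNA synthetases, 28 genes of the unfolded protein and ATF4 response, 21 interferon-stimulated genes, 11 replication-dependent histones and 25 housekeeping genes. At an unadjusted p under 0.05 in edgeR these had 7, 9, 5, 1 and 2 members, against 2852 of all 14201 genes tested. Without DMSO replicate 1, 1 gene of the ATF4 list was called, and without the second combination library 1 interferon-stimulated gene was called.

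The additive model assumes that estradiol acts alike with and without dexamethasone, and the 4 groups allow this to be examined. Estradiol with dexamethasone against dexamethasone alone called 379 genes (2.67%), 117 higher and 262 lower, and estradiol against DMSO called 256 (1.8%), 169 higher and 87 lower. These contrasts share no library. They had 132 genes in common, which is 34.8% of the larger list and 51.6% of the smaller, and 131 of the 132 moved in the same direction. The exception was EHF, at -0.85 with dexamethasone and 0.72 without it. Among the 379 genes, 352 had the same sign in the other background, as did 244 of the 256. Genes raised without dexamethasone had a median log2 fold change of 0.70 with dexamethasone, against 1.17 without it, where they were chosen; without dexamethasone replicate 1 the value with dexamethasone was 0.91. Genes lowered with dexamethasone had a median of -0.75 there, where they were chosen, and -0.41 without dexamethasone. Without dexamethasone replicate 1 the lists held 437 and 298 genes and shared 171.

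**Figure D4:**
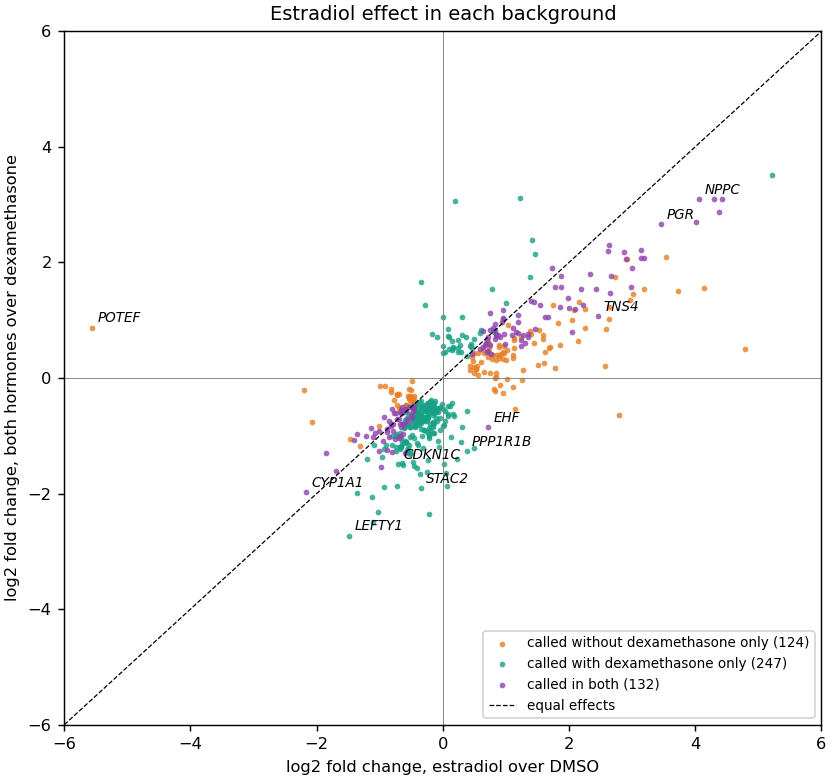
Log2 fold change of estradiol in cells with dexamethasone (y axis) against that in cells without it (x axis), for genes called in at least 1 of the 2 contrasts. Most points share their sign, and POTEF is the labelled gene that is lower without dexamethasone and not with it.

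A test of the interaction asked whether the estradiol effect with dexamethasone differed from that without it, and edgeR called 3 of 14201 genes (0.0211%). DESeq2 called 15 and limma-voom 3, and 733 genes had an unadjusted p under 0.05. Leaving out single libraries gave 1 call without either estradiol library, 2 without dexamethasone replicate 1, 5 without DMSO replicate 2 and 10 without dexamethasone replicate 2. Of the 827 genes with an estradiol effect, 96 had an interaction p under 0.05 and POTEF was the 1 called. POTEF, which encodes a POTE protein fused to an actin-like domain, had 1.75 and 1.94 CPM with estradiol alone and 1.95 and 2.11 CPM with both hormones, against 75.9 and 99.8 CPM in DMSO and 1.40 and 0.786 CPM with dexamethasone alone. Both DMSO libraries stood far above the 6 others, so its averaged estradiol term of -3.58 ± 0.90 describes neither background. In edgeR the term was lost without either estradiol library or DMSO replicate 2 (adjusted p up to 0.265). With no library left out, DESeq2 did not call it (adjusted p = 0.264) and limma-voom did (adjusted p = 0.0044). POTEF is 99.3% identical to POTEE over 3536 bases, which makes its reads uncertain. The other 2 genes, EHF and PPP1R1B, had no call for the averaged effect. Not all 3 interaction calls held when single libraries were left out, and some of the calls made then were of other genes.

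Among genes called for the averaged effect, TNS4 and STAC2 also had small interaction p-values, and neither interaction passed after adjustment. TNS4, a tensin of focal adhesions, had 7.32 and 7.15 CPM with estradiol alone and 9.94 and 9.65 CPM with both hormones, against 1.15 and 1.46 CPM in DMSO and 4.43 and 4.94 CPM with dexamethasone alone. It was above its own background in both cases, by 1.07 on the log2 scale with dexamethasone and by 2.46 without it. STAC2, an adaptor of calcium channels, had 1.18 and 1.41 CPM with estradiol alone and 5.15 and 5.21 CPM with both hormones, against 1.94 and 1.41 CPM in DMSO and 18.5 and 20.4 CPM with dexamethasone alone. In its case the libraries with dexamethasone were separate and those without were not, and the averaged term was -1.45 ± 0.25 (adjusted p = 0.0043).

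Promoters were searched for the palindromic estrogen response element, GGTCA and TGACC with any 3 bases (NNN) between them, which reads the same on both strands, in the 250 bases before and 50 after each gene start (RefSeq, GRCh38.p14). A promoter was found for 11178 of the 14201 genes tested and for 86 of the 113 genes named by rule. Of the 11178, 1 held the exact element and 53 (0.474%) held it with at most 1 mismatch. None of the 86 named genes was among them. Because fewer than 80% of the called genes had a promoter sequence, a comparison of shares between raised and other genes is void. Raised genes with a near match were ADAMTSL5 and SLC43A2, chosen for display after the search. ADAMTSL5, an extracellular matrix protein of microfibrils, had 5.12 and 6.67 CPM with estradiol alone and 5.10 and 4.49 CPM with both hormones, against 1.63 and 1.60 CPM in DMSO and 1.49 and 1.74 CPM with dexamethasone alone. Its groups were widely separate (1.72 ± 0.16, adjusted p = 1.08e-04). SLC43A2, another carrier of large neutral amino acids, rose by 0.28 ± 0.06, at 122 to 145 CPM with estradiol against 99.3 to 118 CPM without. The 250 bases before each start are printed below in the direction of transcription, with the near match in capitals; both genes lie on the minus strand, and the intervals include the 50 bases after the start. The matches begin 221 and 134 bases before the start.
ADAMTSL5 promoter, chr19:1512970-1513269: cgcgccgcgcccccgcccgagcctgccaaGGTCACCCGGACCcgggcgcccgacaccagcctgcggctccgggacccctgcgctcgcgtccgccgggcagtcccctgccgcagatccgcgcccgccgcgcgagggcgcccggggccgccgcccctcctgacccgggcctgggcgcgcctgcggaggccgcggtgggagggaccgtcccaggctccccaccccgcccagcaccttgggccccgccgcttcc
SLC43A2 promoter, chr17:1604985-1605284: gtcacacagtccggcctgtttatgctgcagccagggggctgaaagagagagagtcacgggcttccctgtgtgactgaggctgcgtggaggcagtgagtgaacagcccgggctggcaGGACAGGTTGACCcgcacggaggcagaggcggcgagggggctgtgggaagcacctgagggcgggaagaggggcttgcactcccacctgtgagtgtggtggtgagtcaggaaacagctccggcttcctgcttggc

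For the aryl hydrocarbon receptor pathway the same windows were searched for GCGTG, the core of its response element, on both strands, and 50.8% of all promoters held it. The promoters of CYP1A1, which fell, and TIPARP, which rose, are printed in the same way with the core in capitals, on the minus and the plus strand of the genome. CYP1A1 has 1 core and TIPARP has 2, in TIPARP as CACGC on the opposite strand. A match is a description of the sequence, and says nothing of binding.
CYP1A1 promoter, chr15:74725479-74725778: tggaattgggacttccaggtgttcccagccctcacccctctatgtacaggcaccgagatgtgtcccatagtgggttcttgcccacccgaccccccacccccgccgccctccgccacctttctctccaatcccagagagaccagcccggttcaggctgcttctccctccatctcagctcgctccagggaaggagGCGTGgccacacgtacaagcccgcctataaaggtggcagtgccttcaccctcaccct
TIPARP promoter, chr3:156674340-156674639: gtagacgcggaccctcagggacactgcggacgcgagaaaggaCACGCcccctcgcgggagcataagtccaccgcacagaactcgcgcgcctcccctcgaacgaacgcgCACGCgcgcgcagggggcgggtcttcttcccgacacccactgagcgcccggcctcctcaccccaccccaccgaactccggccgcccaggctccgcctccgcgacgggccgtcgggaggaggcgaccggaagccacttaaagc

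Of the 113 genes named by rule, 111 were called and for 87 the call held whichever of the 8 libraries was left out. The 12 raised genes described first were all among these 87, and of the 12 lowered genes all but PELI2 were.

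**Figure D5:**
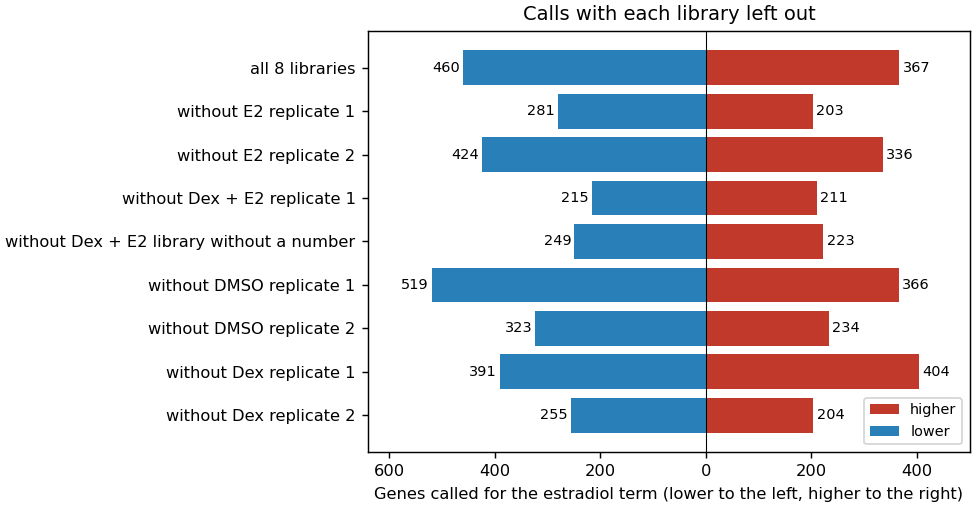
Number of genes called higher and lower with estradiol when each library is left out in turn, beside the count with all 8 libraries. The total lies between 426 without combination replicate 1 and 885 without DMSO replicate 1.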

How the data were processed

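Per the labels' protocols, total RNA was extracted from lysed cells and libraries were made with a stranded mRNA kit. The authors deposited raw counts per gene, which are whole numbers, and a normalised table that was not used. HISAT2 2.0.4, featureCounts 1.5.1 (Subread), DESeq2 1.14.1 and build hg19 are named in the submitters' processing notes. Neither the gene annotation nor the strand setting of the counting is given in the sources used here. Columns were assigned to samples by name. The number 1 stands on both combination columns. The one that matches the title of combination replicate 1 was taken as it, and the other is a combination library with no number.

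The counts were analysed with edgeR 4.0.16 (limma 3.58.1, R 4.3.3): filterByExpr by group left 14201 of 26364 genes, TMM scaling followed, and glmQLFit and glmQLFTest were fitted with estradiol and dexamethasone as terms, leaving 5 residual degrees of freedom. Benjamini-Hochberg adjustment ran over all genes tested. A standard error is the fold change divided by the root of the test's F value. Contrasts within each background and the interaction came from a 4-group fit. DESeq2 1.42.0 and limma-voom were alternatives. Replicates of a group differed beyond counting noise (chi-square per degree of freedom 9.93 to 25.6), so none was counted as a repeated deposit. The script was tested on simulated data first.

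Named genes were the 12 largest changes in each direction among called genes with a mean log2 CPM above 1 and groups that do not overlap, up to 3 called members with the smallest p of each of 49 lists, the 4 called genes with the smallest interaction p, and ESR1, PGR, GREB1, NR3C1, TFF1 and PDZK1. The comparison, the lists and this rule were chosen with earlier results of these data known. Lists are described by counts, with no set test. Not every gene that the rule takes is reported here. Transcripts were compared by blastn to find near copies, taken as stretches of at least 200 bases with at least 95% identity. Reads are uncertain for this reason also in ITGB3 and TGFB2 (100% over 2267 and 1371 bases) and in CCND2 (100% over 989). The same holds for IQSEC3 (99.3% over 555), SLC43A2 (97.5% over 321), BNIP3 (97.4% over 657) and SLC7A5 (96.7% over 537). It also holds for GREB1 (95.8% over 213) and NR3C1 (95.2% over 520).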

Additional observations from a re-analysis of the deposited data

Results flagged for a closer look

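In 3 genes the estradiol effect differed between backgrounds by the interaction test (edgeR, adjusted over 14201 genes). Not every one of these calls held when single libraries were left out. POTEF had an interaction of 6.43 on the log2 scale (adjusted p = 4.08e-05), with the values given above. EHF, an epithelial ETS factor, had 13.9 and 13.6 CPM with estradiol alone and 16.7 and 19.1 CPM with both hormones, against 9.50 and 7.20 CPM in DMSO and 33.0 and 31.7 CPM with dexamethasone alone. Its interaction was -1.57 (adjusted p = 0.0462): estradiol went with lower levels in the presence of dexamethasone and with higher levels in its absence. PPP1R1B, an inhibitor of protein phosphatase 1, had 9.01 and 10.3 CPM with estradiol alone and 29.4 and 25.3 CPM with both hormones, against 8.13 and 6.81 CPM in DMSO and 68.1 and 63.5 CPM with dexamethasone alone. Its interaction was -1.64 (adjusted p = 0.0231).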

How the results depend on the processing

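The count of 827 called genes was recomputed under 17 alternatives. RLE scaling gave 830, limma-voom 835, the 4-group mean 824, RNA45S5 left out 826, no filter on low counts 1035 and DESeq2 1031. In the 4 libraries with dexamethasone it was 457, and in the 4 without it 277. Leaving out each library gave 426 to 885. The interaction had 32 calls with no filter, 15 with DESeq2 and 5 with the replicate block, and 1 to 10 without single libraries. List members called numbered 151 of 984 tested, 179 with DESeq2 and 99 to 157 without single libraries. Among 113 named genes the term reversed for POTEF, to 0.87 in the libraries with dexamethasone. A fit with the replicate number as a block, on the 7 numbered libraries, called 698 genes, 599 of them among the 827. Deviations of same-numbered libraries correlated at 0.15 for DMSO and estradiol, 0.24 for DMSO and dexamethasone and 0.05 for estradiol and dexamethasone, so the samples share a number and are not shown to be paired. The causes of these shifts were not tested. Results without dexamethasone replicate 1 for the lists and for both backgrounds were added after the data were seen. Genes under 1 CPM rest on few counts.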

Other observations

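Genes of solute carriers were taken as a family by their symbols after the values had been seen. Of 253 tested, 22 were higher and 10 lower (12.6% called), against 5.82% of all genes tested. SLC30A1, which exports zinc, had 89.6 and 75.6 CPM with estradiol alone and 104 and 99.6 CPM with both hormones, against 40.3 and 45.2 CPM in DMSO and 52.7 and 36.8 CPM with dexamethasone alone. The groups did not overlap (1.07 ± 0.11, adjusted p = 1.75e-04). SLC39A14, an importer of zinc and iron, rose by 0.32 ± 0.06, SLC5A6, the vitamin transporter for biotin and pantothenate, by 0.47 ± 0.08, SLC9A2, a sodium/proton exchanger, by 0.59 ± 0.08 and SLC29A3, a nucleoside carrier of lysosomes, by 0.71 ± 0.13. SLC6A20, an importer of proline, and SLC16A5, a monocarboxylate carrier, were lower, by -0.80 ± 0.10 and -0.60 ± 0.10 on the log2 scale.

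Zinc finger genes whose symbols start with ZNF were taken in the same way. Of 479 tested, 1 was higher and 10 lower (2.30% called). Of all genes tested, 2.58% were higher and 3.24% lower (5.82% called), so this family was called less often. ZNF423, a cofactor of BMP and retinoid signalling, had 4.11 and 5.03 CPM with estradiol alone and 3.02 and 3.14 CPM with both hormones, against 8.08 and 7.97 CPM in DMSO and 7.56 and 7.35 CPM with dexamethasone alone. Every library with estradiol was below every library without (-1.03 ± 0.14, adjusted p = 9.63e-04).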
